A study of Homo sapiens with 6 samples.

Results

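The genes described here are 7 of the 20332 genes in the deposited table of Huh-7 cells. They are SREBF2, which encodes the transcription factor that drives cholesterol synthesis, its regulator INSIG1, and the synthesis enzymes HMGCS1, IDI1, SQLE, LSS and DHCR7. Members were found by their gene symbols, and each symbol matched 1 row. The 7 genes were chosen from measured values of this same experiment, the comparison of RAC3 overexpression with the negative control, so their differences between the groups are given as a description with no test. None of the 7 encodes a lipoprotein receptor.

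Huh-7 is a human hepatocellular carcinoma cell line. RNA was sequenced from 3 samples of Huh-7 cells that stably overexpressed RAC3, a small GTPase delivered by lentivirus, and from 3 samples of their negative control, whose genotype is labelled WT. The titles name all 3 overexpression samples RAC3, whereas the genotype labels of replicates 2 and 3 name RAC4 and RAC5. Whether the stable line was 1 clone or a pool is not given in the sources used here, and p-values measure only the spread between these samples.

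Cells sense cholesterol in the membrane of the endoplasmic reticulum. When sterols are scarce, the escort protein SCAP carries the SREBF2 protein to the Golgi, where proteases release its active part, which then raises transcription of most enzymes of cholesterol synthesis. When sterols are plentiful, INSIG proteins hold SCAP back, and INSIG1 is itself a target of the pathway. Synthesis runs from acetyl-CoA over mevalonate and the isoprenoid diphosphates to squalene, which is closed into lanosterol and then trimmed to cholesterol, and liver cells are among the main producers.

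Promoter sequence is shown for the 6 genes with a window in the RefSeq table (build GRCh38.p14), because 4 of them were lower with RAC3 overexpression and 2 were not. Each window runs from 250 bases before to 50 bases after an annotated start, 5′ to 3′ on the strand of the gene. Capitals mark matches on either strand to TCACNCCAC, a form of the sterol regulatory element bound by SREBF2, to CCAAT, the box of NF-Y, and to GGGCGG, the Sp1 box. These are the 4 genes with lower values, SREBF2 (chr22:41832855-41833154, plus strand), INSIG1 (chr7:155297628-155297927, plus strand), LSS (chr21:46228725-46229024, minus strand) and DHCR7 (chr11:71448344-71448643, minus strand).
SREBF2: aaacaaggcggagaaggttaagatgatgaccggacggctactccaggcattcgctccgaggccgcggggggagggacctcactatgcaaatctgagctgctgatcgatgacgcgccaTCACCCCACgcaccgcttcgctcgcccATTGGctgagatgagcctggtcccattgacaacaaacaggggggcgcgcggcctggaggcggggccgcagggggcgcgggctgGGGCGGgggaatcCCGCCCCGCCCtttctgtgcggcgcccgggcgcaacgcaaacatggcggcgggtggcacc
INSIG1: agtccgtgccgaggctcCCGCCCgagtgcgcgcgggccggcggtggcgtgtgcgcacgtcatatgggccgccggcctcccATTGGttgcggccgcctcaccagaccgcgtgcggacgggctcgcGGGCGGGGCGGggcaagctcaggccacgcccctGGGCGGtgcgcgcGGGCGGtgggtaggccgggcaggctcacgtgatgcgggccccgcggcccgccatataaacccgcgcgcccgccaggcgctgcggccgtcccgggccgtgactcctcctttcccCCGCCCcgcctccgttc
LSS: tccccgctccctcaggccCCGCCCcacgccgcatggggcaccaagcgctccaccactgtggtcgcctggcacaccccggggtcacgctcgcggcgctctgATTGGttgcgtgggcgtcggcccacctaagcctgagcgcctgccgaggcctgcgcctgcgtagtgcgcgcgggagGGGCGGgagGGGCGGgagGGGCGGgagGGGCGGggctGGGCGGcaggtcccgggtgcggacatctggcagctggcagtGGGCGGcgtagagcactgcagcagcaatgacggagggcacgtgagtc
DHCR7: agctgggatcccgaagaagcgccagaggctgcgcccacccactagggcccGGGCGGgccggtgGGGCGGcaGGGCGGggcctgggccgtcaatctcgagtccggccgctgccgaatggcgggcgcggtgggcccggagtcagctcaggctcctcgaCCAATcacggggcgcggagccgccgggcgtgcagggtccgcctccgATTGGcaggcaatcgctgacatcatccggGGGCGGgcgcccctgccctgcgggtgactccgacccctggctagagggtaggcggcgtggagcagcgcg

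The genes whose values overlapped between the groups were HMGCS1 (chr5:43313363-43313662, minus strand) and IDI1 (chr10:1049070-1049369, minus strand). The first listed window was printed for every gene except IDI1, for which the window over the gene start in GENCODE v29 was taken. For DHCR7 no window reaches the gene start in GENCODE v29, at 71452868, and the printed window lies inside the gene.
HMGCS1: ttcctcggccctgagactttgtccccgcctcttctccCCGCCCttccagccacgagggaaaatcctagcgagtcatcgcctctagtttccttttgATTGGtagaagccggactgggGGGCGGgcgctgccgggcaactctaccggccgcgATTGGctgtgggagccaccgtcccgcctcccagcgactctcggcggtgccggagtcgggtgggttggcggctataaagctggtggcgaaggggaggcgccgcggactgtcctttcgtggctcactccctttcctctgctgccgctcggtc
IDI1: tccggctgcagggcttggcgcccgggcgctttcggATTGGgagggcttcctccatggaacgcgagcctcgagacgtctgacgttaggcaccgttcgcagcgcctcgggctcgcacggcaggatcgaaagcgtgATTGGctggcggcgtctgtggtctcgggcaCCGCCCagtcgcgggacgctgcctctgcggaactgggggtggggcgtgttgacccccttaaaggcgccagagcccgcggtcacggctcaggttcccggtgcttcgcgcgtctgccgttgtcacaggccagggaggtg

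TCACNCCAC was found in 1 of the 6 genes, SREBF2, at positions -133 to -125 on the plus strand, counted with 0 at the annotated start. Of 35116 windows over all genes, 396 (1.128%) held it. CCAAT was found in at least 1 window of each of the 6 genes and in 7 of their 10 windows, against 34.61% of all windows. GGGCGG was likewise found in each of the 6 genes and in 9 of their 10 windows, against 44.95% of all windows. In SREBF2 and INSIG1 some GGGCGG matches overlap each other. Among 12 other enzymes of the pathway with a window, TCACNCCAC was found in 0, CCAAT in 9 and GGGCGG in 10. The first listed window of IDI1, which was not printed, held no CCAAT. A match is only a match of letters, and other forms of the sterol regulatory element were not searched.

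The libraries held 13855762 to 18199888 counts each. RAC3 was at 31.4 to 35.6 CPM, the share of a library's counts scaled by TMM, in the negative controls and at 225 to 240 CPM in the overexpression samples, replicates 2 and 3 included. Summed hepatocyte markers, among them ALB and AFP, lay at 5695 to 5833 CPM in the controls and 5075 to 5553 CPM with RAC3 overexpression. Single hepatocyte markers went both ways, with a negative log2 fold change for 5 of the 8. TF averaged 1174 CPM in the controls and 795 CPM with RAC3 overexpression, whereas AFP averaged 417 and 466 CPM and FGB 487 and 600 CPM. The 5 fibroblast markers summed to 229 to 247 and 270 to 284 CPM, mostly from LUM, COL1A2 and COL1A1, with DCN near 0. LUM averaged 155 and 181 CPM and COL1A2 43.8 and 62.2 CPM, whereas COL1A1 averaged 38.3 and 33.0 CPM. The 5 leukocyte markers summed to 37.3 to 46.2 and 33.1 to 35.0 CPM, mostly from CD14, with PTPRC and CD3E near 0, and the 4 endothelial markers to at most 3.76 CPM. Their part in the differences described here was not tested. Among 12941 genes tested with edgeR, 15.3% were lower and 13.3% higher with RAC3 overexpression at an adjusted p under 0.05, and the median log2 fold change of all genes tested was 0.00. With library size as the only scaling, 65.4% of the calls were higher, against 46.5% with TMM.

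SREBF2 transcripts were less abundant in RAC3-overexpressing cells. SREBF2 (ENSG00000198911, chromosome 22, 41833079 to 41907308 in GENCODE v29) was at 452, 424 and 421 CPM in negative controls 1 to 3 and at 322, 339 and 335 CPM in RAC3 replicates 1 to 3. All 3 overexpression samples lay below all 3 controls. The means were 433 ± 17.4 and 332 ± 9.08 CPM (SD, n = 3), and the log2 fold change was -0.38 (SE 0.0423), so that the level fell by 23.3%. The level of the active, cleaved protein was not measured here.

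INSIG1 differed most among the 7 genes. INSIG1 (ENSG00000186480, chromosome 7, 155297776 to 155310235) was at 107, 108 and 109 CPM in the controls and at 75.4, 73.1 and 72.2 CPM with RAC3 overexpression. The groups were far apart compared with their spread, with means of 108 ± 0.72 and 73.6 ± 1.66 CPM (SD, n = 3). The log2 fold change was -0.55 (SE 0.0516), and the level fell by 31.9%.

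HMGCS1 and IDI1, enzymes of the first part of the pathway, did not separate the groups. HMGCS1 (ENSG00000112972, chromosome 5, 43289395 to 43313512) makes HMG-CoA from acetyl-CoA and acetoacetyl-CoA. It was at 575, 592 and 617 CPM in the controls and at 639, 595 and 609 CPM with RAC3 overexpression, with means of 595 ± 21.3 and 614 ± 22.5 CPM (SD, n = 3). The ranges overlapped, and the log2 fold change of 0.05 was about as large as its SE of 0.041. IDI1 (ENSG00000067064, chromosome 10, 1039152 to 1049170) interconverts isopentenyl and dimethylallyl diphosphate, the building blocks of all isoprenoids. IDI1 was at 54.0, 58.7 and 60.3 CPM in the controls and at 63.5, 57.7 and 60.9 CPM with RAC3 overexpression, again overlapping. Its log2 fold change was 0.07 (SE 0.0632). The sign of both values depended on the processing: once the dependence of counts on GC content had been taken out of every library, they were -0.07 for HMGCS1 and -0.06 for IDI1.

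The 3 enzymes that act on squalene and later sterols were all lower. SQLE (ENSG00000104549), squalene epoxidase, catalyses the first oxygenation of the pathway. It was at 81.4, 79.4 and 85.4 CPM in the controls and at 70.1, 61.5 and 60.3 CPM with RAC3 overexpression. Replicate 1 was the highest of the overexpression samples and still lay below every control. The means were 82.1 ± 3.02 and 64.0 ± 5.37 CPM (SD, n = 3), a log2 fold change of -0.36 (SE 0.0635).

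LSS (ENSG00000160285, chromosome 21, 46188141 to 46228824), lanosterol synthase, closes the sterol rings. LSS was at 137, 128 and 130.3 CPM in the controls and at 92.9, 104 and 105 CPM with RAC3 overexpression. Here replicate 1 was the lowest of the overexpression samples, the reverse of SQLE. The means were 132 ± 4.57 and 101 ± 6.79 CPM (SD, n = 3), and the log2 fold change was -0.39 (SE 0.0558).

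DHCR7 (ENSG00000172893, chromosome 11, 71428193 to 71452868), 7-dehydrocholesterol reductase, makes cholesterol in the last step. DHCR7 was at 328, 309 and 312 CPM in the controls and at 219, 233 and 236 CPM with RAC3 overexpression. No overexpression sample came near the controls, and the means were 316 ± 9.86 and 229 ± 8.94 CPM (SD, n = 3). The log2 fold change was -0.46 (SE 0.044), and the level fell by 27.5%.

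**Figure D1:**
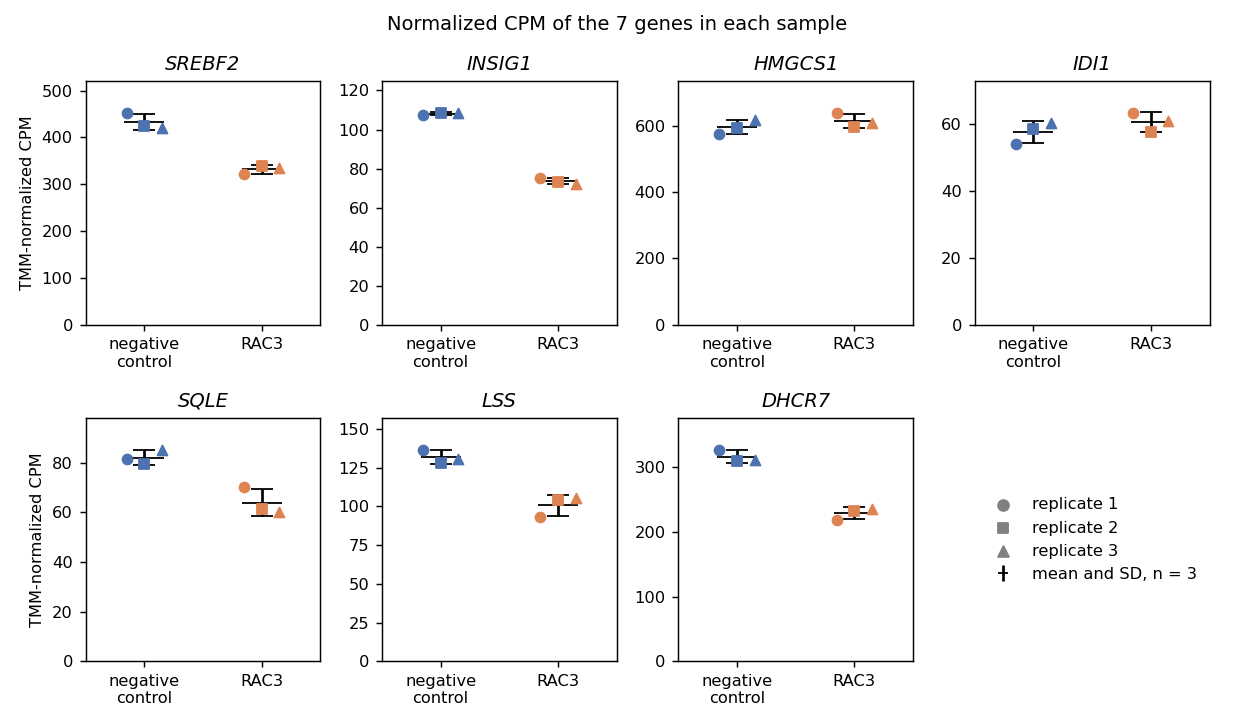
Each panel shows 1 of the 7 genes with TMM-normalized CPM on a linear axis from 0, negative controls in blue and RAC3 overexpression in orange, one point per sample and black bars for mean and SD (n = 3). The groups are apart for SREBF2, INSIG1, SQLE, LSS and DHCR7 and overlap for HMGCS1 and IDI1, as in the 575 to 617 CPM of HMGCS1 in the controls against 595 to 639 CPM.

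Of the 7 genes, 5 were lower without overlap of the groups and 0 were higher. Over all genes tested, 21.6% were lower without overlap and 20.9% were higher without overlap. The same 5 genes carried an adjusted p under 0.05 in the fit, beside the 15.3% of all genes given above, from which nothing is read because this contrast chose the genes. By the study's rule, a fold change above 1.5 with an unadjusted p under 0.05, 0 of the 7 genes were called, where the rule called 2.99% of all genes lower and 1.68% higher. The median log2 fold change of the 7 genes was -0.38.

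GC content moved with these differences. Genes above the upper quartile of GC content had a median log2 fold change of -0.17 and those below the lower quartile one of 0.15. SREBF2, LSS and DHCR7 had 57.0%, 58.6% and 57.1% GC, near the upper quartile of 57.4%. INSIG1, at 49.99%, was near the median of 49.9%. HMGCS1 (43.6%), IDI1 (42.5%) and SQLE (40.6%) were below the lower quartile of 44.0%. With the GC trend taken out, the log2 fold changes were -0.28 for SREBF2, -0.57 for INSIG1, -0.52 for SQLE, -0.26 for LSS and -0.36 for DHCR7, so the values of these 5 genes were still negative while the order among them changed, with SQLE then more negative than DHCR7. Under this setting SQLE stood beside INSIG1 and apart from HMGCS1 and IDI1, the other enzymes of low GC content. The part of GC content in the differences was not tested further.

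**Figure D2:**
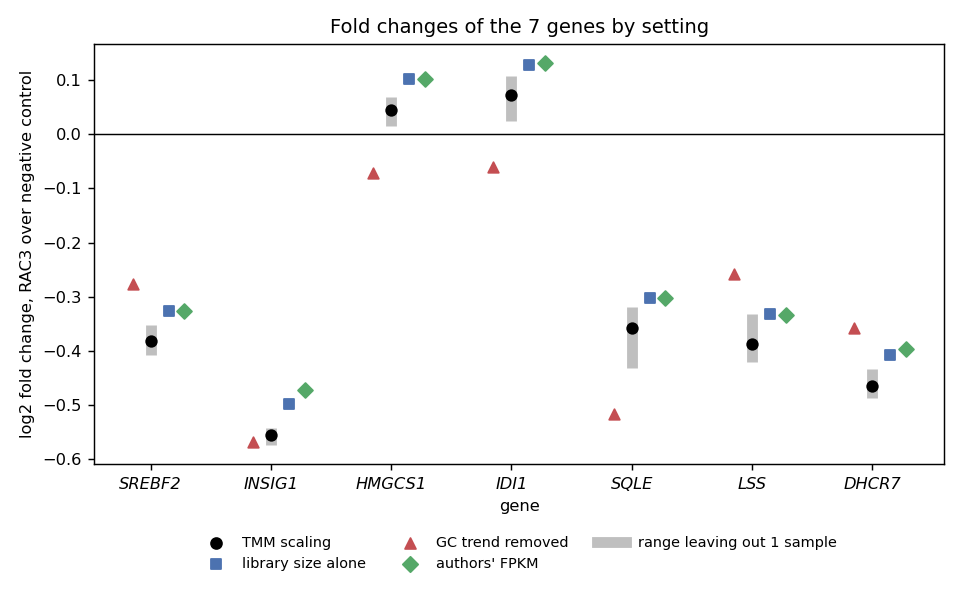
The vertical axis gives the log2 fold change of RAC3 overexpression over the negative control for each of the 7 genes, with symbols for TMM scaling, library size alone, GC trend removed and the deposited FPKM, and grey bars for the range when 1 sample is left out. The 5 lower genes stay below 0 in every setting plotted, whereas HMGCS1 and IDI1 cross 0 when the GC trend is removed.

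The level of the 7 genes was compared per length, in FPKM as deposited. In the negative controls the order was HMGCS1 at 164 ± 7.14, DHCR7 at 123 ± 4.97, SREBF2 at 80.9 ± 2.60, INSIG1 at 42.3 ± 1.43, LSS at 36.8 ± 1.02, SQLE at 27.5 ± 1.03 and IDI1 at 22.1 ± 1.01 FPKM (SD, n = 3). No neighbours in this order overlapped in their sample values. HMGCS1 was at the percentile 96.2 of genes tested and IDI1 at 71.0. With RAC3 overexpression HMGCS1 was at 176 ± 7.35, DHCR7 at 93.2 ± 2.57, SREBF2 at 64.5 ± 1.41, INSIG1 at 30.5 ± 0.83, LSS at 29.2 ± 0.932, IDI1 at 24.2 ± 1.02 and SQLE at 22.3 ± 1.73 FPKM. There INSIG1 overlapped LSS and IDI1 overlapped SQLE, and IDI1 was no longer the lowest by its mean. The length behind the FPKM values of 1 gene differed between samples, by 1.08-fold for LSS and 1.07-fold for INSIG1 and hardly for SREBF2.

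Ratios of counts within a library need no scaling between libraries. SREBF2 itself was lower with RAC3 overexpression, so a gene of unchanged level has a higher ratio to it. How many of all genes have ratios to SREBF2 without overlap of the groups was not counted. The count of HMGCS1 divided by that of SREBF2 was 1.27, 1.40 and 1.47 in the controls and 1.99, 1.76 and 1.82 with RAC3 overexpression, higher in every overexpression sample. For IDI1 the ratio to SREBF2 was 0.119, 0.138 and 0.143 in the controls and 0.197, 0.170 and 0.182 with RAC3 overexpression, also without overlap. These ratios set enzymes of low GC content against SREBF2, and they moved with it. The log2 fold change of HMGCS1 exceeded that of SREBF2 by 0.43 as counted and by 0.20 with the GC trend taken out, and that of IDI1 by 0.45 and 0.22. The ratios of DHCR7 (0.724 to 0.741 against 0.681 to 0.704) and INSIG1 (0.237 to 0.258 against 0.215 to 0.235) were lower without overlap. Those of LSS and SQLE overlapped, with means of 0.304 and 0.303 for LSS and of 0.190 and 0.193 for SQLE. For SQLE the difference from the log2 fold change of SREBF2 was 0.02 as counted and -0.24 with the GC trend taken out, and for INSIG1 it was -0.17 and -0.29.

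**Figure D3:**
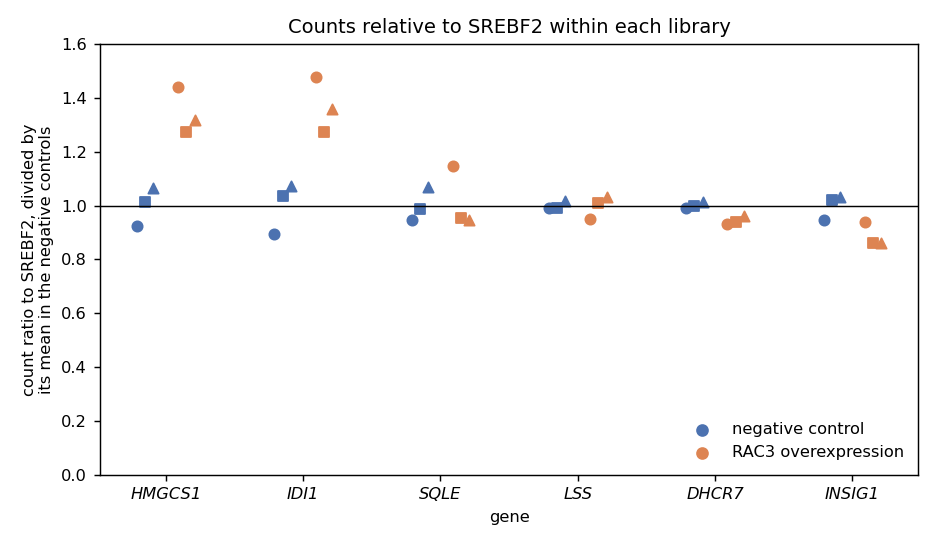
The vertical axis gives the count of each gene divided by the count of SREBF2 in the same library, relative to the mean of this ratio in the negative controls, with one point per sample (blue, negative control; orange, RAC3 overexpression; circle, square and triangle for replicates 1, 2 and 3). HMGCS1 and IDI1 lie above 1 in every overexpression sample, INSIG1 and DHCR7 lie below the controls, and SQLE and LSS overlap them.

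The 7 genes also varied from sample to sample. Over the 6 samples, log2 CPM of SREBF2 had a Pearson correlation of 0.996 with DHCR7, 0.98 with LSS and 0.97 with INSIG1, of which the difference between the groups is a part. After the group means were taken out, SREBF2 kept values of 0.91 with DHCR7 and 0.83 with LSS but had -0.96 with IDI1, -0.91 with HMGCS1, -0.72 with INSIG1 and -0.59 with SQLE. HMGCS1 and IDI1 correlated at 0.95 over all samples and 0.94 within groups. Within groups HMGCS1 also had 0.80 with SQLE and 0.75 with INSIG1, and SQLE had 0.90 with INSIG1. For the genes other than INSIG1, the signs within groups went with GC content. SREBF2, LSS and DHCR7, of higher GC content, correlated positively with each other. Each of them correlated negatively with HMGCS1, IDI1 and SQLE, the genes of low GC content. INSIG1, whose GC content was near the median, had -0.96 with LSS, -0.92 with DHCR7 and 0.61 with IDI1 within groups. The GC trend was not taken out for these correlations, and its part in them was not tested. These values describe 6 libraries that share their scaling, and they carry no test.

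The other enzymes of the pathway were taken from a list of 15 genes. Of these, 8 fell and 0 rose at an adjusted p under 0.05, with a median log2 fold change of -0.20, and 13 of 15 values were negative. Over all genes tested 15.3% were lower and 13.3% higher, with a median of 0.00, and the counts for the lists that follow stand beside the same shares. By the study's rule 0 of the 15 were called. In the mevalonate arm, 4 of 6 genes fell. FDFT1, squalene synthase, fell by 0.37 on the log2 scale (edgeR quasi-likelihood test, adjusted p = 7.01e-06), from 262 ± 2.64 to 202 ± 10.2 CPM. MVK, mevalonate kinase, fell by 0.37 (adjusted p = 0.000817), MVD, the decarboxylase that makes isopentenyl diphosphate, by 0.32 (adjusted p = 0.000357) and FDPS, farnesyl diphosphate synthase, by 0.22 (adjusted p = 0.000972). ACAT2 and PMVK had log2 fold changes of -0.14 and -0.18 and did not pass the test. With TMM scaling HMGCS1 and IDI1 thus stood among neighbours in the pathway with negative values. These neighbours were of higher GC content, from 48.3% for ACAT2 and 49.9% for FDFT1 to 63.5% for MVD. HMGCS1 and IDI1 had 43.6% and 42.5%. With the GC trend removed, HMGCS1 and IDI1 were at -0.07 and -0.06, against -0.39 for FDFT1, -0.22 for MVK, -0.16 for FDPS and -0.13 for MVD. Of lower GC content still were SQLE (40.6%), CYP51A1 (39.9%), MSMO1 (38.7%) and SC5D (38.1%). With TMM scaling these later enzymes were at -0.36, -0.20, -0.34 and 0.03. The part of GC content in these values was not tested.

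Of the 9 genes between lanosterol and cholesterol, 4 fell. MSMO1, which removes methyl groups of the sterol ring, fell by 0.34 on the log2 scale (adjusted p = 0.000297), EBP, the sterol isomerase, by 0.23 (adjusted p = 0.00535) and CYP51A1, the lanosterol demethylase, by 0.20 (adjusted p = 0.006). TM7SF2, NSDHL, HSD17B7, SC5D and LBR lay between -0.25 and 0.11 and did not pass. With the GC trend removed, MVD was no longer called at -0.13 (adjusted p = 0.0694), MVK was at -0.22, and MSMO1 and CYP51A1 were at -0.52 and -0.37, both more negative than DHCR7 at -0.36.

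**Figure D4:**
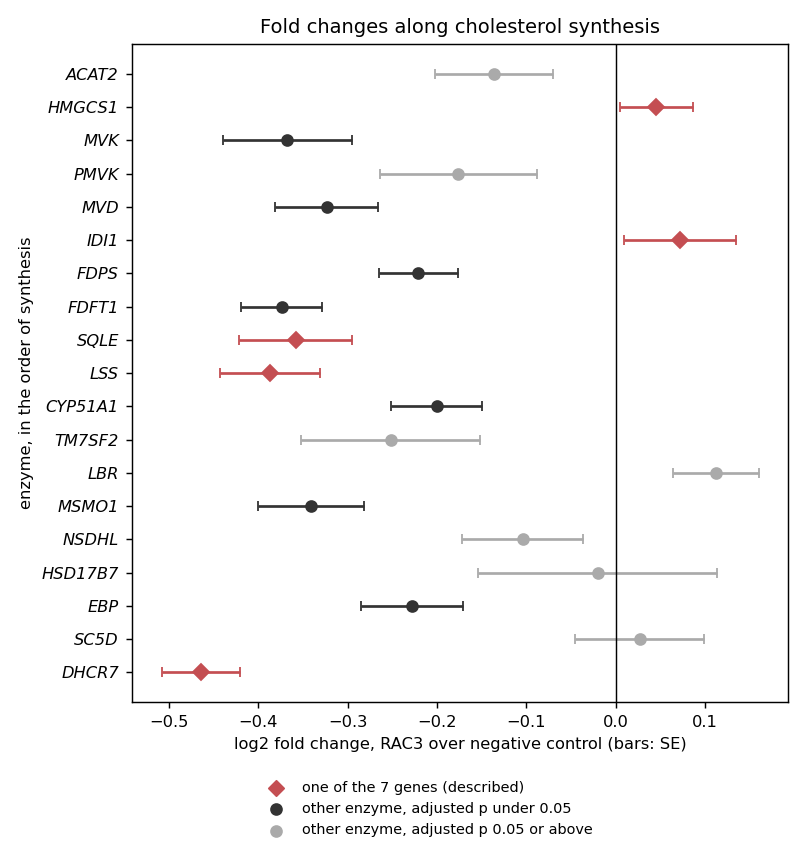
Enzymes are listed from top to bottom in the order of synthesis, and the horizontal axis gives the log2 fold change of RAC3 overexpression over the negative control with its SE. Red diamonds are the 5 enzymes among the 7 genes, black circles 7 of the 8 other enzymes that fell and grey circles the 7 that did not pass the test. With TMM scaling, HMGCS1 and IDI1 lie just right of 0 among enzymes with negative values, and DHCR7 lies at -0.46.

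The genes that control SREBF2 processing were compared next. SREBF1, the relative of SREBF2 that drives fatty acid synthesis, fell by 0.31 on the log2 scale (adjusted p = 2.17e-05), and SCAP, the escort of both factors, by 0.34 (adjusted p = 0.000135). With the GC trend removed these values were -0.13 and -0.22. INSIG2, the paralogue of INSIG1, was at 16.5, 13.7 and 9.37 CPM in the controls and at 9.12, 8.81 and 8.30 CPM with RAC3 overexpression. The third control of INSIG2 lay close to the overexpression samples, unlike the narrow controls of INSIG1. INSIG2 counts fell by 0.58 (adjusted p = 0.0119), and without control replicate 1 the value was -0.39 (adjusted p = 0.0829). In the deposited FPKM the groups of INSIG2 overlapped. They were at 5.08, 3.77 and 2.59 in the controls and at 3.28, 5.30 and 2.37 with RAC3 overexpression, with means of 3.81 and 3.65 FPKM. The proteases MBTPS1 and MBTPS2, which cleave SREBF2, were at -0.07 and 0.09 and did not pass.

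Genes around the pathway differed in how many of them were called. In the branches that use isoprenoids for other ends, such as prenylation and dolichol and ubiquinone synthesis, 0 of 8 genes (against 15.3% lower and 13.3% higher over all genes) were called by the edgeR quasi-likelihood test, 0 had an unadjusted p under 0.05, 0 were called by DESeq2 or limma-voom, and the median log2 fold change was 0.03. In sterol transport and storage 3 of 10 genes fell and 1 rose. NPC2, which hands cholesterol out of lysosomes, fell by 0.41 (adjusted p = 5.51e-06), STARD4, a cytosolic sterol carrier, by 0.40 (adjusted p = 0.00285) and OSBP, an oxysterol-binding protein, by 0.12 (adjusted p = 0.0354). LIPA, the lysosomal lipase for cholesteryl esters, rose by 0.22 (adjusted p = 0.0116), a call that was lost with the GC trend removed (0.09, adjusted p = 0.302) and without RAC3 replicate 3 (adjusted p = 0.0505). The call of OSBP was lost without any 1 of RAC3 replicates 1, 2 and 3 or control replicate 2, with adjusted p-values from 0.0547 to 0.143.

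Of the 4 sterol export and liver X receptor genes that could be tested, 3 fell, against 15.3% of all genes. ABCG1, a cholesterol exporter and target of the liver X receptors, was at 11.6, 9.99 and 11.6 CPM in the controls and at 5.12, 5.47 and 7.80 CPM with RAC3 overexpression. The groups did not overlap, and ABCG1 fell by 0.87 (adjusted p = 0.00047), past the study's rule. The receptors NR1H2 and NR1H3 fell by 0.25 (adjusted p = 0.00343) and 0.27 (adjusted p = 0.0202), but with the GC trend removed they were at -0.08 (adjusted p = 0.311) and -0.13 (adjusted p = 0.237). ABCA1 was at -0.15 (adjusted p = 0.0564), and ABCG5 and ABCG8 were too low to be tested. Of 5 genes for the turnover of sterol pathway proteins, 2 fell, among them MYLIP, a ubiquitin ligase, by 0.27 (adjusted p = 0.0186). The call of MYLIP was lost without control replicate 1 or 2 or RAC3 replicate 3, with adjusted p-values from 0.0519 to 0.087. That of NR1H3 was lost without control replicate 1 or RAC3 replicate 1, with adjusted p-values of 0.105 and 0.0966. With library size as the only scaling, MYLIP, NR1H3 and OSBP also lost their calls, at adjusted p-values from 0.0533 to 0.266. In oxysterol and bile acid synthesis, 2 of 6 genes could be tested, CYP27A1 at -0.23 and HSD3B7 at -0.11, and 0 were called by edgeR, DESeq2 or limma-voom, 1 of them having an unadjusted p under 0.05.

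The genes most like the 7 in their profile were sought among 11214 genes with a mean of at least 50 counts, by the Pearson correlation of log2 CPM with the mean profile of the 7 over the 6 samples. Among the 5 closest were CTNNBIP1, an inhibitor of beta-catenin, TNNT1, a slow muscle troponin, NOL4L and F2, which encodes prothrombin, at 0.997 each. Their log2 fold changes were -0.45, -0.50, -0.64 and -0.61. The difference between the 2 groups of 3 samples is part of each of these values.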

How the data were processed

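Poly(A)-selected RNA of Huh-7 cells was sequenced from 3 RAC3-overexpressing and 3 negative control samples. The authors deposited raw counts per gene and FPKM values per sample in 1 table. The submitters' processing notes name Bowtie2 2.2.8, HISAT2, StringTie 1.3.1 and DESeq2. The genome build and whether counting used strand are not given in the sources used here. Antisense transcripts overlap SREBF2, HMGCS1, LSS, DHCR7 and IDI1 in GENCODE v29, so their reads may not be told apart.

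Samples were grouped by title. The deposited counts went into edgeR 4.0.16 under R 4.3.3. filterByExpr left 12941 genes and TMM scaled the libraries. RAC3 overexpression was set against the negative control by edgeR's two-sided quasi-likelihood test, and p-values were adjusted by Benjamini-Hochberg across the genes tested. The biological coefficient of variation was 0.0533. The SE of a log2 fold change is its size divided by the square root of F. DESeq2 1.42.0 and limma-voom (limma 3.58.1) served as alternatives, with other scalings and filters, removal of each library's lowess trend with transcript GC content (span 0.3), log2(FPKM + 0.1), the replicate number as a block, and each sample left out in turn. The steps were tested on simulated data. The columns of group means were not used.

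The 7 genes, the gene lists and the tests were chosen with earlier results of these data known. Named from each list were the genes with an adjusted p under 0.05, at most 5 in each direction by smallest p. Some genes of the lists are not reported here by name, although the counts include them. The printed windows were chosen after the motif matches were seen. An exact permutation test of 3 against 3 samples cannot go below p = 0.1, so none is given. Replicates differed by more than counting noise (chi-square per gene 2.49 to 5.23) and were counted as separate samples.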

Additional observations from a re-analysis of the deposited data

How the results depend on the processing

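The 7 members were chosen on this contrast, so their values under other settings describe the processing and support nothing. Their median of -0.38 ranged from -0.40 to -0.36 when 1 sample was left out, and was -0.33 with library size alone and -0.28 with the GC trend removed. Library size alone moved the median of all genes by 0.06, gave 2613 genes called higher in place of 1717, and called 1 of the 15 other synthesis genes higher in place of 0. By the study's rule 605 genes were called in place of 3691, and 0 of the 15 in place of 8. The deposited FPKM gave -0.33 for SREBF2, 0.10 for HMGCS1, -0.40 for DHCR7 and -0.47 for INSIG1. The other list genes called in the main fit gave 405 values under the alternatives, of which 382 kept their call and 23 lost it, and none changed direction. List genes not called in the main fit are not among these values, so calls gained under an alternative are not counted there. Samples with the same replicate number did not deviate together (correlations of -0.09, -0.05 and -0.02 over 11221 genes), so the numbers were not taken as pairs, and the replicate block gave 3261 calls and ended that of OSBP (adjusted p = 0.0885). The cause of these differences was not tested. In a bulk sample, fewer cells with a transcript and less of it per cell cannot be told apart.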

Other observations

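Fatty acid synthesis genes, which SREBF1 is known to drive, were lower as well: 7 of 9 fell at an adjusted p under 0.05 by the edgeR quasi-likelihood test and 0 rose, with a median log2 fold change of -0.34, against 15.3% lower, 13.3% higher and a median of 0.00 over all genes tested. FADS2 and FADS1, the desaturases of polyunsaturated fatty acids, fell by 0.62 (adjusted p = 3.28e-09) and 0.59 (adjusted p = 6.88e-09). FASN, fatty acid synthase, fell by 0.59 (adjusted p = 6.88e-09) and, with the GC trend removed, by 0.37. With TMM scaling these 3 genes passed the study's rule, whose fold threshold is 0.585 on the log2 scale. With the GC trend removed, FADS2 and FADS1 fell by 0.53 and 0.50. With library size alone, FADS2, FADS1 and FASN fell by 0.56, 0.53 and 0.54. None of the 3 genes reached the fold threshold in either setting. SCD, the stearoyl-CoA desaturase, fell by 0.48 (adjusted p = 1.2e-08), from 3203 to 2304 CPM on average, and ACACA, acetyl-CoA carboxylase, by 0.27 (adjusted p = 0.000568). ELOVL6 and ME1 were at 0.15 and -0.09 and did not pass.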
